A study of Mus musculus with 4 samples.

Results

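Aminoacyl-tRNA synthetases are the enzymes that join each amino acid to its transfer RNA, and they are described here in BA/F3 cells, an established mouse cell line that grows in interleukin 3 and serves as a model of early B cells. Members were the probe sets of a mouse expression array with a single gene symbol of the synthetase family, a letter for the amino acid followed by "ars" with or without a final 1 or 2, together with Farsa, Farsb and Eprs. This gave 72 probe sets of 35 genes, out of 45101 probe sets on the array. Each gene was represented by its probe set with the highest mean over the libraries. Symbols that end in 2 were taken as mitochondrial, which gave 16 genes, and the other 19 as cytosolic. Tarsl2, a threonyl-tRNA synthetase paralogue, falls outside the symbol pattern and is given with the companion lists.

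The study holds 4 RNA libraries, 2 with the genotype label hsa ETV6-RUNX1 + and 2 with hsa ETV6-RUNX1 -. Titles and the design text speak of chromatin immunoprecipitation, whereas the molecule, the extraction protocol and the series type describe total RNA on an expression array, so the values are treated as RNA levels. The first come from a BA/F3 line with an inducible human ETV6-RUNX1 gene (TEL-AML1), the fusion transcription factor of a childhood B-cell leukemia, and the second from control BA/F3 cells, which the series design calls empty vector lines. Cells of both kinds, controls included, were treated for 16 h with 32.5 pM of the inducer mifepristone before total RNA was isolated. Clones, cultures and days are not given in the labels, no library without mifepristone was used here, and the p-values below measure only the spread between these libraries, which may be technical.

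The labels conflict for 2 of the 4 libraries, so each comparison was made in 2 ways. In a free-text field, the description, ETV6-RUNX1 replicate 1 is entered as control and control replicate 1 as expressing the fusion, against their titles and genotypes. Title and description match for replicate 2 of each group. Libraries are named by title below, and "fusion-described" stands for control replicate 1 and ETV6-RUNX1 replicate 2, "control-described" for ETV6-RUNX1 replicate 1 and control replicate 2. The 2 fusion-described libraries correlated at a Pearson r of 0.972 over the 17720 tested probe sets and the 2 control-described ones at 0.966, against 0.947 for the libraries titled ETV6-RUNX1 and 0.931 for those titled control. Mouse Runx1, at its probe set with the highest mean, read 7.50 in ETV6-RUNX1 replicate 1, 8.98 in ETV6-RUNX1 replicate 2, 8.73 in control replicate 1 and 8.40 in control replicate 2. It differed by 0.90 by description and by -0.32 by title. Its other probe sets ran from 0.11 to 1.16 by description and from -0.56 to -0.11 by title. Mouse Etv6 differed by 0.35 and 0.44 by description and by -0.12 and -0.13 by title. The transgene is human, and whether these mouse probe sets read it was not tested, so they are not used to check the labels. Of 7 markers of the B lineage on the array, 4 lay within 0.5 of the lowest value in every library, among them Pax5, Ebf1 and Rag1, whereas Cd79b, a chain of the B cell receptor complex, read 8.31 to 8.81.

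Cells hold separate sets of synthetases for cytosolic and mitochondrial protein synthesis, nearly all of them encoded in the nucleus by different genes. A few genes supply both compartments, among them Gars for glycine and Kars for lysine, which are counted as cytosolic here because of their symbols. In the cytosol several synthetases form a multi-synthetase complex on non-catalytic scaffold proteins. Transcription of many synthetase genes is known to respond to amino acid shortage through the kinase GCN2 (Eif2ak4) and the transcription factor ATF4, and growth programmes driven by MYC also act on genes of the translation machinery.

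Grouped by description, nearly the whole family was lower in the fusion-described libraries, although no single member passed the test. Of the 34 tested genes 32 were lower, or 94.1%, against 48.3% of the 8892 tested genes, and 2 were higher, against 51.5%. The median log2 difference, fusion-described minus control-described, was -0.60 for the synthetases and 0.01 for all tested genes. Without control replicate 2 the synthetase median was -0.36, with 30 members lower. The groups did not overlap in 24 synthetases that were lower, against a background of 25.6% of tested genes, and in 2 that were higher, Qars and Pars2, against 30.3%. A difference of at least 2-fold downward was seen in 6 members, against 3.85% of tested genes, and upward in 0, against 6.62%. In the limma fit 0 members passed an adjusted p of 0.05, where 2 of 17720 probe sets, or 0.0113%, did, and the members' adjusted p ran from 0.13 to 0.78. At an unadjusted p under 0.05 there were 14 lower members and 0 higher ones, against 9.76% and 13.6% of tested genes. The lower members by this measure numbered 7 without control replicate 1 and 6 without control replicate 2, where 4.25% and 3.4% of tested genes were lower. They numbered 12 without ETV6-RUNX1 replicate 1 and 10, beside 1 higher, without ETV6-RUNX1 replicate 2, where 5.57% and 7.14% of tested genes were lower. With the replicate number as a block there were 20 lower members and 1 higher, and 16.1% of tested genes were lower.

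Grouped by title, the family was split evenly. Of the 34 tested genes 17 were lower and 17 higher in the libraries titled ETV6-RUNX1, with a median of 0.00, where 53.6% of tested genes were lower and 46.2% higher. By limma 0 members passed the adjusted threshold, as did 0% of all tested probe sets, the lowest adjusted p was 1, and 0 members had an unadjusted p under 0.05, as had 0.146% of tested genes lower and 0.0787% higher. The groups failed to overlap in 1 member, Sars2, which was lower, against 5.71% of tested genes lower and 3.96% higher. Without control replicate 1 the median by title was -0.46 with 31 members lower, and without control replicate 2 it was 0.44 with 32 higher. Without ETV6-RUNX1 replicate 1 it was -0.20 with 25 lower, and without ETV6-RUNX1 replicate 2 it was 0.10 with 23 higher.

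**Figure D1:**
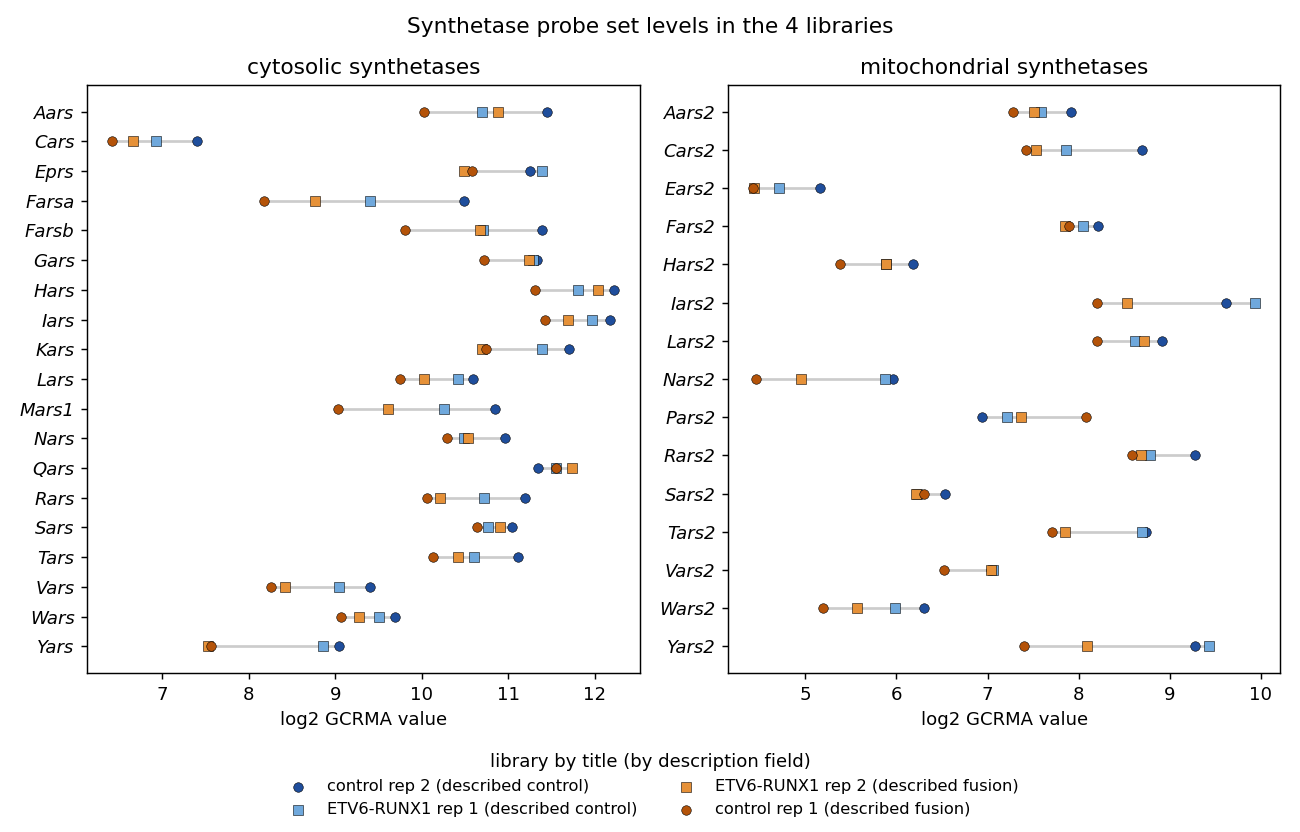
Log2 GCRMA values (horizontal axis) of the 34 tested synthetases in the 4 libraries, cytosolic on the left and mitochondrial on the right, with squares for libraries titled ETV6-RUNX1, circles for libraries titled control, blue for control-described and orange to brown for fusion-described libraries, and a grey line over the range of each gene. Blue points lie to the right of the orange and brown ones for 24 genes, and Qars and Pars2 show the reverse order.

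The same 2 libraries stood at the ends of the order for most of the family. Control replicate 2 had the highest value in 28 of 34 members and control replicate 1 the lowest in 27, while over all 8892 tested genes they held these places in 2795 and 2682. The median deviation from the gene's own mean was 0.46 in control replicate 2, 0.10 in ETV6-RUNX1 replicate 1, -0.15 in ETV6-RUNX1 replicate 2 and -0.43 in control replicate 1. The libraries that share the title control were therefore the farthest apart, and the 2 titled ETV6-RUNX1 lay between them. The split by description accounted for 77.8% of the variance of the 34 members between libraries, the replicate number for 18.3% and the title for 3.97%, against 53.9%, 36.5% and 9.61% over the tested probe sets.

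Within the cytosolic set 18 of 19 genes were lower in the fusion-described libraries, with a median difference of -0.62, and 3 of them were at least 2-fold lower. Farsa encodes the catalytic alpha subunit of cytosolic phenylalanyl-tRNA synthetase. It read 8.17 in control replicate 1 and 8.77 in ETV6-RUNX1 replicate 2, the fusion-described libraries, and 9.40 in ETV6-RUNX1 replicate 1 and 10.49 in control replicate 2. These groups did not overlap, with means of 8.47 ± 0.42 (SD, n = 2) and 9.94 ± 0.77 (SD, n = 2). The log2 difference was -1.47 (SE 0.47, limma adjusted p = 0.23), or 2.77-fold lower, and by title it was -0.25 (SE 0.91).

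Yars, the cytosolic tyrosyl-tRNA synthetase, read 7.56 in control replicate 1, 7.52 in ETV6-RUNX1 replicate 2, 8.86 in ETV6-RUNX1 replicate 1 and 9.04 in control replicate 2. The 2 fusion-described values were nearly equal and lay well below the other 2. The log2 difference was -1.41 (SE 0.17, limma adjusted p = 0.13), 2.65-fold lower, and this was the lowest adjusted p of the family. By title Yars differed by -0.11 (SE 0.77).

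Mars1, the methionyl-tRNA synthetase that also charges the initiator tRNA, read 9.03 in control replicate 1, 9.60 in ETV6-RUNX1 replicate 2, 10.25 in ETV6-RUNX1 replicate 1 and 10.85 in control replicate 2. Its groups by description did not overlap and differed by -1.24 (SE 0.33, limma adjusted p = 0.19), while the difference by title was -0.01 (SE 0.74). Vars for valine differed by -0.88, Kars for lysine and Rars for arginine each by -0.82, Farsb, the beta subunit beside Farsa, by -0.80, and Eprs, which joins the glutamate and proline activities in a single protein, by -0.78. Each of these 5 genes had non-overlapping groups at the probe set that represents it, though another tested probe set of Eprs overlapped.

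The other cytosolic members differed less. Cars for cysteine differed by -0.63, Aars for alanine and Lars for leucine each by -0.62, Tars for threonine by -0.58, Iars for isoleucine by -0.51 and Wars for tryptophan by -0.43. Hars for histidine and Gars for glycine each differed by -0.34 and Nars for asparagine by -0.32. The groups of Aars, Hars and Nars overlapped at these probe sets, because ETV6-RUNX1 replicate 2 read higher than ETV6-RUNX1 replicate 1 in all 3.

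Sars, the seryl-tRNA synthetase, had the smallest cytosolic difference. It read 10.64 in control replicate 1, 10.90 in ETV6-RUNX1 replicate 2, 10.77 in ETV6-RUNX1 replicate 1 and 11.04 in control replicate 2. The groups overlapped and differed by -0.13 (SE 0.18, limma adjusted p = 0.73).

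Qars, which charges the glutamine tRNA, was the only tested cytosolic member with a higher mean in the fusion-described libraries. It read 11.56 in control replicate 1, 11.74 in ETV6-RUNX1 replicate 2, 11.55 in ETV6-RUNX1 replicate 1 and 11.35 in control replicate 2. The lowest fusion-described value exceeded the highest control-described value by only 0.01, and the log2 difference was 0.20 (SE 0.14, limma adjusted p = 0.50). Its other tested probe sets differed by 0.05 and 0.09.

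Among the mitochondrial genes 14 of 15 tested members were lower in the fusion-described libraries, with a median difference of -0.40, and 3 were at least 2-fold lower. Yars2, the mitochondrial tyrosyl-tRNA synthetase, had the most negative difference of the family. It read 7.40 in control replicate 1, 8.10 in ETV6-RUNX1 replicate 2, 9.43 in ETV6-RUNX1 replicate 1 and 9.28 in control replicate 2. The log2 difference by description was -1.61 (SE 0.30, limma adjusted p = 0.15), 3.04-fold lower, and its second probe set differed by -1.50. By title the difference was 0.42 (SE 0.88).

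Iars2, which charges mitochondrial isoleucine tRNA, read 8.20 in control replicate 1, 8.53 in ETV6-RUNX1 replicate 2, 9.94 in ETV6-RUNX1 replicate 1 and 9.61 in control replicate 2. The groups lay more than 1 log2 unit apart, with a difference of -1.41 (SE 0.22, limma adjusted p = 0.14), while by title it was 0.33 (SE 0.77). Nars2, for mitochondrial asparagine tRNA, read 4.46 in control replicate 1, 4.95 in ETV6-RUNX1 replicate 2, 5.88 in ETV6-RUNX1 replicate 1 and 5.96 in control replicate 2. It was dim but its groups did not overlap either, with a difference of -1.21 (SE 0.24, limma adjusted p = 0.16) by description and 0.21 (SE 0.68) by title.

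Tars2 for threonine differed by -0.94, Cars2 for cysteine by -0.80 and Wars2 for tryptophan by -0.76, each with non-overlapping groups. Ears2, which charges glutamate and takes part in making glutamine tRNA, differed by -0.51, Hars2 and Rars2 each by -0.40, Aars2 by -0.36, Lars2 by -0.31, Vars2 by -0.27 and Fars2 by -0.26. The groups of Hars2, Lars2 and Vars2 overlapped at these probe sets. Hars and Hars2, the only members that lie next to each other in the RefSeq annotation of protein-coding genes (GRCm38.p6), differed by similar amounts, -0.34 and -0.40.

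Sars2, for mitochondrial serine tRNA, had the smallest difference by description. It also had the only non-overlapping groups by title among the probe sets used to represent the genes. It read 6.22 in ETV6-RUNX1 replicate 1 and 6.21 in ETV6-RUNX1 replicate 2, both below the 6.30 of control replicate 1 and the 6.54 of control replicate 2. The difference by title was -0.20 (SE 0.25, limma adjusted p = 1) and by description -0.12 (SE 0.21, limma adjusted p = 0.78). A second tested probe set of Fars2 did not overlap by title either, but in the other direction, with a difference of 0.28.

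Pars2, the mitochondrial prolyl-tRNA synthetase, ran against the rest of the family. It read 8.08 in control replicate 1, 7.37 in ETV6-RUNX1 replicate 2, 7.22 in ETV6-RUNX1 replicate 1 and 6.94 in control replicate 2. The fusion-described libraries were higher without overlap, by 0.64 (SE 0.32, limma adjusted p = 0.37), and by title the difference was -0.22 (SE 0.48). Mars2, for mitochondrial methionine tRNA, fell under the filter on dim probe sets and was not tested, with values from 3.22 to 3.54. At the probe sets used to represent the genes, every tested member read at least 4.43 in each library, so none entered through a single group.

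**Figure D2:**
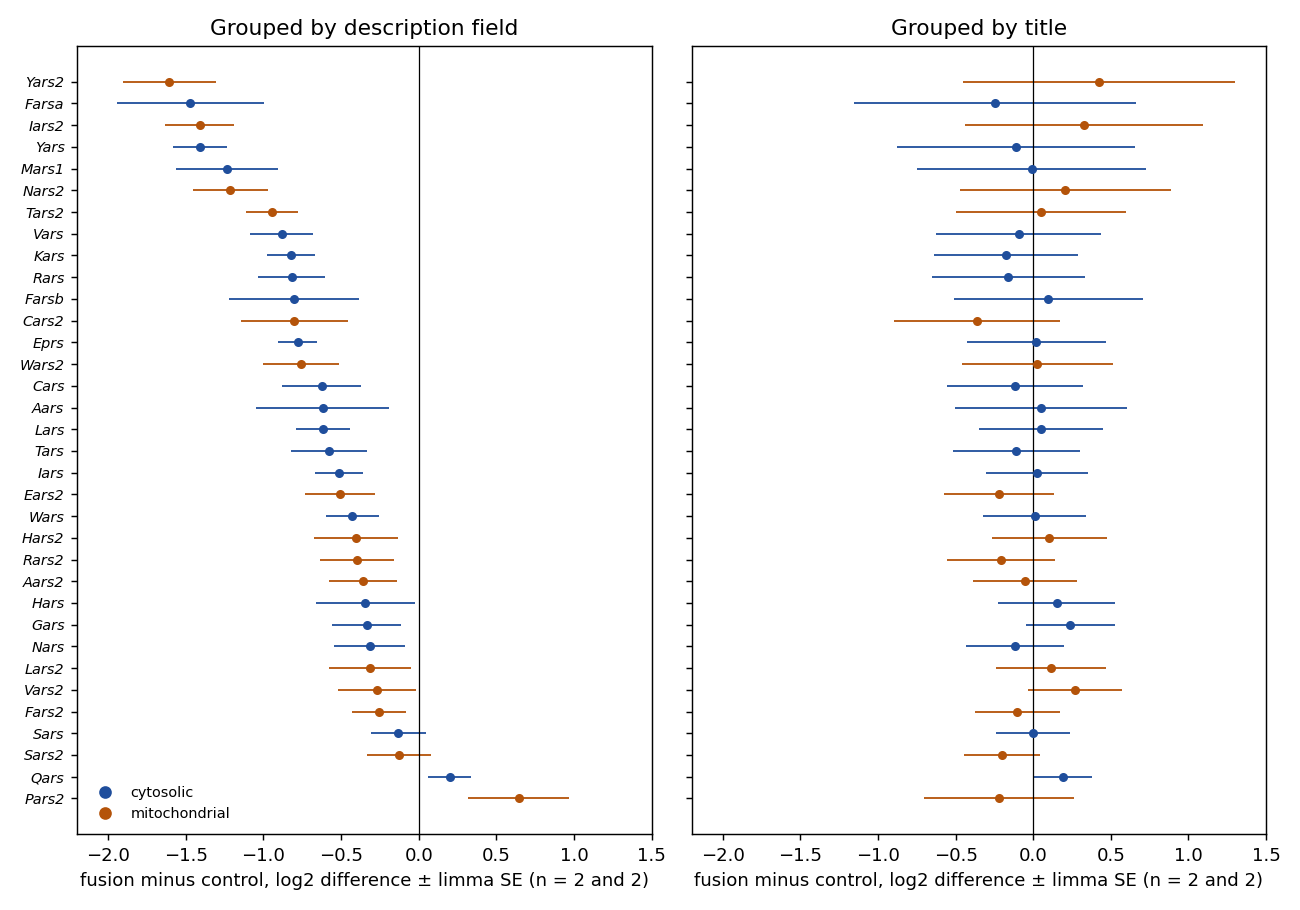
Log2 difference, fusion minus control, of the 34 tested synthetases (horizontal axis, points with bars of 1 limma SE, 2 libraries per group), grouped by the description field on the left and by title on the right, in blue for cytosolic and orange for mitochondrial genes, ordered by the difference by description. On the left 32 points lie below 0, from -1.61 for Yars2 to -0.12 for Sars2, and on the right 17 lie on each side with bars that reach 0 for most genes.

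Since most members were lower together by description, their promoters were searched for motifs of 4 factor families, and the 4 promoters shown belong to the members with the largest differences among those that hold a match. RefSeq promoter windows (GRCm38.p6, 250 bases before to 50 after the start) were matched by gene identifier for 26 of the 35 genes. Capitals mark a motif match on either strand. The windows are Yars2 at chr16:16302715-16303014 on the plus strand, Farsa at chr8:84856736-84857035 on the plus strand, Mars1 at chr10:127311737-127312036 on the minus strand and Farsb at chr1:78488848-78489147 on the minus strand.
Yars2: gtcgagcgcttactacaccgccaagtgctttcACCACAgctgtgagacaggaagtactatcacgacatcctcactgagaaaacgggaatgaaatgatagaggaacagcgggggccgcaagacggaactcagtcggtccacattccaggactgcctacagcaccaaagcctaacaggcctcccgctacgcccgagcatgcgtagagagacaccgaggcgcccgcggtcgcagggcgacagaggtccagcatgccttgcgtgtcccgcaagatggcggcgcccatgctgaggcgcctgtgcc
Farsa: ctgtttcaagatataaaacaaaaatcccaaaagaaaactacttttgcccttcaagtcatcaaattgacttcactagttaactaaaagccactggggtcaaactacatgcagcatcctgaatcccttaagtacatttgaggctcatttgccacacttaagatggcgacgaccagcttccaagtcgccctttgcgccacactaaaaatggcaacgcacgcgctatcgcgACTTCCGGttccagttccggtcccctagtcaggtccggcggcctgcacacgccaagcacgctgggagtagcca
Mars1: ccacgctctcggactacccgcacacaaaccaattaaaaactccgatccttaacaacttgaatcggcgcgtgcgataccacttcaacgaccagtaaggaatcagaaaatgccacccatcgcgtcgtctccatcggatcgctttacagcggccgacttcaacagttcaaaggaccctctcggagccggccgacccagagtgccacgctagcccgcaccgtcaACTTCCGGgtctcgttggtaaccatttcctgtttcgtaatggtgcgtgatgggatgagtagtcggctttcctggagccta
Farsb: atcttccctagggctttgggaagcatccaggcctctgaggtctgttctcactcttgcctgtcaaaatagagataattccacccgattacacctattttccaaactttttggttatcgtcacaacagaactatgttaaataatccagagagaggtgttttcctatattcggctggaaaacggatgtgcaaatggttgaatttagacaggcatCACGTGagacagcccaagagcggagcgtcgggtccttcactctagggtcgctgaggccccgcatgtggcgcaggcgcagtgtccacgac
Yars2 holds the RUNX letters, Farsa and Mars1 the ETS letters and Farsb an E-box.

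The motifs were searched on both strands and none of their matches overlapped in these windows. A member gene was counted if any of its windows matched, whereas the background shares count single windows. The shares are therefore not counted fully alike. The E-box CACGTG, the site that MYC and MAX recognise, was found in 5 of the 26 genes (Aars, Ears2, Farsb, Iars and Tars), or 19.2%, against 7.15% of all 32851 windows and 10.5% of windows of tested genes. The ATF4 amino acid response letters TGATGNAAT were found in 3 genes, or 11.5%, against 0.965% of all windows and 0.342% of those of tested genes. In Aars and Iars the match read ATTGCATCA and in Gars ATTTCATCA, on the reverse strand. The ETS letters CCGGAAGT, the core that ETV6 and its relatives recognise, were found in Farsa, Mars1 and Rars2, or 11.5% of the 26 genes. They were found in 3.89% of all windows and in 9.56% of those of tested genes. The RUNX letters TGTGGT were found in Yars2 alone, or 3.85% of the 26 genes, against 16.8% and 12.4%. The 3 genes with ATF4 letters differed by -0.62, -0.51 and -0.34 by description, which is within the range of the members without them. A match of letters is a description and does not show that a factor binds there.

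Enzymes for the same amino acid in the 2 compartments did not always differ by the same amount. Tyrosine had large differences in both, -1.41 for Yars and -1.61 for Yars2, and serine small ones in both, -0.13 for Sars and -0.12 for Sars2. Isoleucine and asparagine showed the larger difference in the mitochondrial enzyme, with -0.51 for Iars against -1.41 for Iars2 and -0.32 for Nars against -1.21 for Nars2. Phenylalanine and valine showed it in the cytosolic enzyme, with -1.47 for Farsa and -0.80 for Farsb against -0.26 for Fars2, and -0.88 for Vars against -0.27 for Vars2. The differences between paired enzymes were not tested.

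The synthetases fall into 2 catalytic classes with unrelated active sites. The 18 class I members, with Eprs counted by its glutamate activity, had a median difference by description of -0.69 with 17 lower. The 16 class II members had a median of -0.38 with 15 lower. Of the 7 tested members of the multi-synthetase complex (Eprs, Iars, Kars, Lars, Mars1, Qars and Rars) 6 were lower, with a median of -0.78, and all 12 cytosolic members outside it were lower, with a median of -0.60. By title these 4 medians lay between -0.05 and 0.02.

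Other probe sets of the same genes gave the same direction. Of 55 tested synthetase probe sets 51 were lower in the fusion-described libraries, and the exceptions were the 3 of Qars and the single one of Pars2. The 51 include a dim Farsa probe set that read 3.07 in control replicate 1 and 3.56 in ETV6-RUNX1 replicate 2. It read 4.51 in ETV6-RUNX1 replicate 1 and 5.29 in control replicate 2. It thus passed the filter on the mean only through the control-described libraries, and its direction is no separate support. In all 17 genes with more than 1 tested probe set these shared a sign. For Eprs they disagreed on control replicate 2: the brighter probe set read 11.25 there and 11.39 in ETV6-RUNX1 replicate 1, and the second read 10.65 and 11.92. The limma adjusted p of Eprs was 0.14 at the first and 0.44 at the second, at differences of -0.78 and -0.80. Size and overlap also varied between probe sets of other genes. The second tested probe set of Hars differed by -0.61 and that of Hars2 by -0.48, both without overlap. That of Cars2 differed by -1.35, and that of Fars2 by only -0.06, with overlap. A probe set annotated to Aars and a second gene was left out, and 10 of the 72 lay within 0.5 of the lowest value of the array in every library.

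Title and description match only in the replicate 2 pair, which holds 1 library a side and so has no replicate check. There 31 of 34 members were lower in ETV6-RUNX1 replicate 2 than in control replicate 2, 2 were higher and Vars2 read the same value in both, against 49.2% of tested genes lower and 50% higher. The median difference was -0.64, and Farsa differed by -1.72, Yars by -1.52, Mars1 by -1.25, Yars2 by -1.18, Iars2 by -1.08 and Nars2 by -1.01. In the replicate 1 pair 31 members were lower in the fusion-described library, titled control replicate 1, and 3 higher, against 45.9% and 53.2% of tested genes, with a median of -0.54. By title that pair ran the other way, with a median of 0.54 for ETV6-RUNX1 minus control. In the description direction 30 members were lower in both pairs, against 36.4% of tested genes, and Qars and Pars2 were higher in both, against 40.4%. The other 2 were Sars2 and Vars2. Within the libraries titled control the fusion-described library was lower by a median of 0.88 and in those titled ETV6-RUNX1 by a median of 0.25, a contrast that also carries the difference between replicate numbers.

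**Figure D3:**
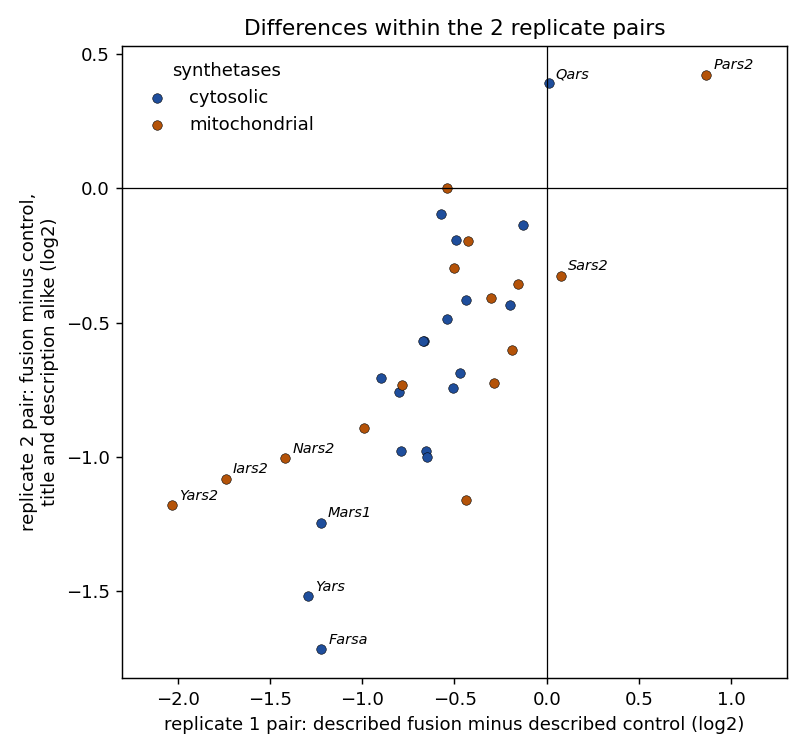
Log2 difference of each tested synthetase within the replicate 1 pair (horizontal axis, control replicate 1 minus ETV6-RUNX1 replicate 1, the description direction) and within the replicate 2 pair (vertical axis, ETV6-RUNX1 replicate 2 minus control replicate 2), blue for cytosolic and orange for mitochondrial genes. The 30 points at the lower left are below 0 in both pairs, Pars2 and Qars lie above 0 in both, and the members named in the plot with the most negative values are Yars2, Iars2, Nars2, Mars1, Yars and Farsa.

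Partners of the synthetases were described from companion lists. All 3 non-catalytic proteins of the multi-synthetase complex were lower in the fusion-described libraries without overlap, against 25.6% of tested genes. Eef1e1 differed by -1.65 (SE 0.25), Aimp2 by -0.80 and Aimp1 by -0.57. Of 4 genes for mitochondrial glutamine tRNA amidation and formylation 3 were lower, with a median of -0.20, and Qrsl1, the amidotransferase A subunit, differed by -0.89. Among 5 genes of trans-editing and related functions 3 were lower and 2 higher, with Dtd2, a D-aminoacyl-tRNA deacylase, at 1.07 and Prorsd1 at -0.59. The other 2 named by the rule were Tarsl2, a threonyl-tRNA synthetase paralogue, at 0.73 and Dtd1 at -0.80. Tarsl2 was higher without overlap and is not part of the synthetase counts above.

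Genes of tRNA maturation and export were lower in 21 of 24 cases, with a median of -0.54, and 9 were lower at an unadjusted p under 0.05, against 9.76% of tested genes. Pop1, a subunit of RNase P, differed by -1.67, Pus7, a pseudouridine synthase, by -1.56, Trnt1, which adds the CCA end, by -0.78 and Polr3k, an RNA polymerase III subunit, by -0.57. Of cytosolic initiation factors 13 of 14 were lower, with a median of -0.42, among them Eif1a at -1.18, Eif4a1 at -0.97, Eif2s2 at -0.77 and Eif3c at -0.39. Elongation genes were lower in 5 of 6 cases, with a median of -0.27. Among these Eif5a differed by -0.80, Eef1d by -0.37, Eef2k by -0.53 and Eef1b2 by -0.06, and Eef1a1, which carries charged tRNA to the ribosome, differed by 0.02. Mitochondrial translation factors were lower in 6 of 9 cases, with a median of -0.27. The members with the smallest p were Mtif3 at 0.71, Lrpprc at -0.54, Gfm1 at -1.01 and Tsfm at -0.68. None of these genes passed the adjusted threshold.

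Genes of the amino acid response lay on both sides by description. Of 25 such genes on the array 5 lay within 0.5 of the lowest value in every library, among them Atf3 and Chac1. Those 5 and the dim Cth, Atf5 and Slc7a11 were not tested. Of 17 tested genes of ATF4 and its known targets 12 were lower and 5 higher, with a median of -0.32, and 2 in each direction had an unadjusted p under 0.05, where 9.76% of tested genes were lower and 13.6% higher. Shmt2 and Mthfd2, enzymes of mitochondrial one-carbon metabolism, differed by -0.98 and -0.89, whereas the stress transcription factors Ddit3 and Cebpb differed by 0.81 and 0.46. Atf4 read 10.50 in control replicate 1, 11.56 in ETV6-RUNX1 replicate 2, 11.29 in ETV6-RUNX1 replicate 1 and 11.69 in control replicate 2, and Asns, asparagine synthetase, read 11.41, 12.18, 12.01 and 12.05 in the same order. Control replicate 1 was the lowest library for both, and the groups overlapped. A second Atf4 probe set read 10.63, 10.93, 11.00 and 11.66 in that order, without overlap, and its dimmest probe set lay at the lowest value of the array. A second Asns probe set read 10.47, 10.90, 10.81 and 10.93. Of 8 tested genes of tRNA sensing and eIF2 kinases 5 were lower, with a median of -0.12. Eif2ak4 differed by -0.29 at its tested probe set, the phosphatase subunit Ppp1r15b by -0.55, Impact by 0.88 and Gcn1 by -0.92, the last with overlapping groups.

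**Figure D4:**
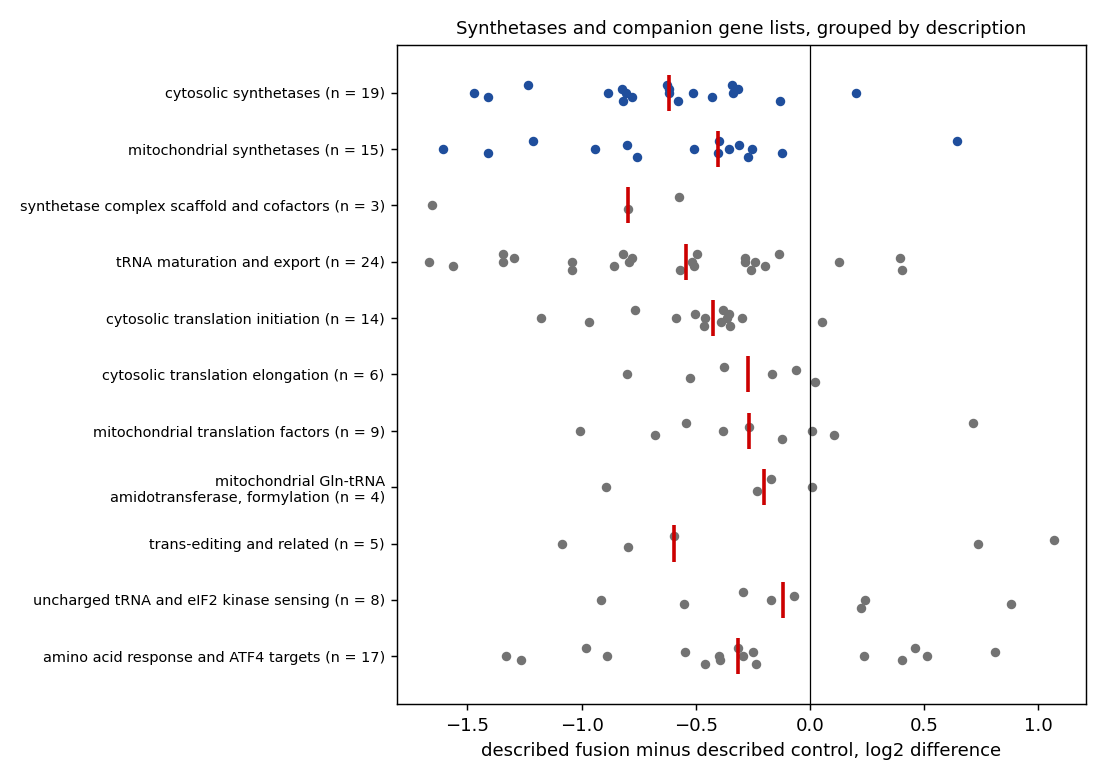
Log2 difference by description (horizontal axis) of each tested gene, as points, for cytosolic and mitochondrial synthetases in blue and 9 companion lists in grey, with a red bar at each median and the number of genes beside each name. Most synthetases lie to the left of 0, with medians of -0.62 and -0.40, as do tRNA maturation genes at -0.54, and the ATF4 list is spread on both sides of 0.

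Several other measures moved with the description split, and their part in the synthetase values was not tested. Myc read 7.27 in control replicate 1, 7.96 in ETV6-RUNX1 replicate 2, 10.38 in ETV6-RUNX1 replicate 1 and 9.94 in control replicate 2, so that it was lower in the fusion-described pair by a log2 difference of -2.55 (SE 0.33, adjusted p = 0.13 in limma). The means of all 5 tested of 10 mast cell and basophil markers on the array were higher in the fusion-described libraries. Of the 10, 4 lay within 0.5 of the lowest value in every library and were not tested. Fcer1a, a chain of the high-affinity IgE receptor, read 9.91 in control replicate 1 and 7.69 in ETV6-RUNX1 replicate 2, and 2.37 in ETV6-RUNX1 replicate 1 and 2.32 in control replicate 2, both within 0.5 of the lowest value of the array. In the same order Cma1, a mast cell protease, read 11.39, 7.99, 6.27 and 2.23, the last also within 0.5 of that lowest value. Hdc, which makes histamine, read 8.16, 7.84, 3.70 and 5.09, and Ms4a2, another chain of the IgE receptor, 9.18, 6.89, 5.59 and 6.22. These 4 did not overlap between the groups, where 30.3% of tested genes were higher without overlap. Fcer1a passed the filter on the mean only through the fusion-described libraries, so its direction is no separate support. Gata2 overlapped, at 13.26, 12.44, 12.71 and 12.60, a difference of 0.20. The log2 of their summed level was 13.81 and 12.65 in the fusion-described and 12.75 and 12.63 in the control-described libraries, and Kit and Mcpt4 lay at the lowest value throughout. Of 5 myeloid markers 2 were tested, Lyz2 at 2.53 and Mpo at -1.49, with a summed log2 level of 7.23 and 7.61 against 5.04 and 8.44 and Elane at the lowest value. Klf1, the tested gene of 2 erythroid markers, differed by -2.37, with summed levels of 6.04 and 5.66 against 7.43 and 8.82. All 4 T cell markers lay within 0.5 of the lowest value. In bulk RNA fewer cells of a type and less RNA per cell cannot be told apart.

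Measures of labelling gave a mixed picture. The 3' minus 5' difference of the dap spike, a transcript added before labelling, was larger in the fusion-described libraries by 0.93 and 0.85 at its 2 probe set pairs. That of the cells' own Gapdh and beta-actin differed by 0.02 and -0.03. The 3' probe set for 18S ribosomal RNA read 12.33 and 11.85 in the replicate 1 libraries and 10.65 and 10.99 in the replicate 2 libraries, a split along replicate number and not along description.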

How the data were processed

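RNA of mifepristone-treated BA/F3 cells was measured on 4 mouse 3' expression arrays. The values are log2 levels per probe set, deposited by the authors after GCRMA (version 2.28.0, per the submitters' processing notes), which corrects background from probe sequence, normalizes between arrays and summarises probe sets. The log2 scale was read from the deposited values. The sources used here do not state a genome build, filters or batch steps.

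The 64 control probe sets were left out, and 17720 probe sets with a mean of at least 4 over the 4 libraries were tested with limma 3.58.1 (R 4.3.3; lmFit and eBayes allowing a trend of variance with level). The tests were two-sided, and p-values were adjusted over all of them by Benjamini-Hochberg, with a threshold of 0.05. The fit was also run on simulated libraries with independent noise and planted changes, as a check on the size of the estimates only. The simulation held no difference between replicate numbers. Groups were taken by title and by the description field. On the array 34958 probe sets had 1 symbol, 932 several and 9211 none in the platform annotation. Each gene was represented by its single-symbol probe set with the highest mean, which gave 8892 tested genes.

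The synthetases and companion lists were chosen with earlier results of these data known, so they are described by counts and medians without a test over the list. Values in every library are given for synthetases with a difference by description of at least 1, for the smallest difference in each compartment and for non-overlapping groups by title; from each companion list up to 4 genes with the smallest p by description are named. Others named were chosen after their values were seen. Alternatives were another filter, centring, probe set averaging, no trend, the replicate number as a block and leaving out each library. Arrays carry no read depth, and their number limits the precision.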

Additional observations from a re-analysis of the deposited data

How the results depend on the processing

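The direction of the family by description held under every alternative run, with a median between -0.73 and -0.36 when 1 library was left out, -0.63 with each library centred on its median and -0.58 without the filter on dim probe sets. The replicate number as a block left that median at -0.60 and the median by title at 0.00, with 0 synthetases past the adjusted threshold in either grouping. Same-numbered libraries deviated together at a correlation of -0.20 by title and 0.59 by description. With 2 pairs the number was not taken to pair the libraries. By title a crossed pairing, added after seeing the data, called 0 probe sets, as did the replicate block. By description the array-wide count of calls was 2, none of them a synthetase, and became 0 without the filter, 0 with the replicate block, 10 with centring, 0 of which were synthetases, and 0 to 0 with any 1 library left out. All of these calls were higher. With probe sets averaged per gene there were 12 higher and 2 lower genes, 0 of them synthetases. With 1 library left out, 6 of the 8 differences by title that were followed changed sign: they ran from -0.51 to 1.36 for Yars2, -1.41 to 0.91 for Farsa, -0.38 to 1.04 for Iars2, -0.85 to 0.63 for Yars, -0.92 to 0.90 for Mars1 and -0.54 to 0.95 for Nars2. Sars2 (-0.32 to -0.08) and Qars (0.09 to 0.30) kept theirs. Centring turned Mars1 by title to 0.0020. By description Sars ran from -0.27 to 0.0018 and Sars2 from -0.28 to 0.0324. The cause of these changes was not tested.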
